A study of Mus musculus with 6 samples.

Results

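The genes of the DNA replication machinery were followed in bulk RNA-seq of fibroadipogenic progenitors (FAPs), resident stromal cells of muscle from which fibroblasts and fat cells can form. The set holds 47 genes out of 16894 listed in the expression table. They were chosen by their role at the replication fork, but with earlier results of these data known. They were sorted into 7 groups: 8 origin licensing genes, 12 helicase genes, 9 polymerase and primase genes, 6 genes of the sliding clamp and its loader, 3 genes of the single-strand binding protein RPA, 5 Okazaki fragment processing genes and 4 genes of nucleotide supply. Control (non-senescent) FAPs and senescent FAPs were compared, with 3 libraries in each group. Both groups were primary FAPs of male and female C57BL/6 mice aged 3 to 6 months, enriched from leg muscle with magnetic beads as CD45-, CD31-, α7-integrin- and SCA-1+ cells. Senescent FAPs had received 20 μM etoposide, a topoisomerase inhibitor that breaks DNA, for 48 h and then 5 days without the drug. The labels do not say whether libraries of a group came from separate mice or cultures, so the p-values measure only the spread between these libraries.

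Replication starts in G1 phase, when the origin recognition complex, CDC6 and CDT1 load the ring-shaped MCM2-7 helicase onto DNA. In S phase, CDC45 and GINS join the ring and turn it into a working helicase, polymerase alpha-primase lays down primers, and polymerases epsilon and delta extend them with the clamp PCNA, which the RFC complex loads. RPA covers the unwound strand, FEN1 and LIG1 join the Okazaki fragments, and ribonucleotide reductase and the thymidylate enzymes supply the nucleotides. Many of these genes are transcribed from E2F target promoters in proliferating cells and are low in cells that have left the cycle.

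To see how the promoters differ, letters of known cell cycle elements were searched in the 300 bases around the start (250 before and 50 after) that RefSeq gives each gene on GRCm38.p6. Promoters were found for 39 of the 47 genes. E2F letters (TTTCCCGC, TTTGGCGC, TTTCGCGC or TTTGCCGC, on either strand) were present in 14 of these 39, or 35.9%, whereas 2.32% of all 27025 promoters and 3.97% of the promoters of 10131 tested genes held them. They were found in 4 of 8 licensing, 5 of 8 helicase, 4 of 7 polymerase and 1 of 5 clamp and loader promoters, and in 0 of 11 promoters of the other 3 groups. CCAAT, on either strand, was present in 23 of 39 (59.0%, beside 37.9% of all promoters and 38.8% of those of tested genes). CHR letters (TTTGAA or TTCGAA, on either strand) were present in 6 of 39 (15.4%, beside 19.4% of all promoters and 13.5% of those of tested genes). A stretch can count for more than 1 element, and a match is a match of letters, not a bound site. Stretches of 6 genes are shown, 5′ to 3′ on the strand of the gene, with the E2F letters in capitals. Mcm5 (chr8:75109259-75109467, + strand) was the member with the largest fall, and its matches overlap each other. Mcm6 (chr1:128359706-128359955, - strand) held the most matches (3), of which those in its longer run of capitals overlap each other. Tk1 (chr11:117826093-117826264, - strand) is shown as the largest fall without a match. The 30 bases around the match are given for Cdc6 (chr11:98908002-98908031, + strand) and Orc1 (chr4:108579416-108579445, + strand), which fell, and for Orc3 (chr4:34614965-34614994, - strand), which was not called. The RefSeq start used for Cdc6 lies inside the gene as GENCODE draws it, so its match lies downstream of the GENCODE start, and the stretch of Orc1 spans the GENCODE start of that gene.
Mcm5: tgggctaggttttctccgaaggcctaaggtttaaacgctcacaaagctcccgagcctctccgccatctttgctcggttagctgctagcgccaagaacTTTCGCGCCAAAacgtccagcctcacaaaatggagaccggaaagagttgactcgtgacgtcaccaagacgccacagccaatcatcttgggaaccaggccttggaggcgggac
Mcm6: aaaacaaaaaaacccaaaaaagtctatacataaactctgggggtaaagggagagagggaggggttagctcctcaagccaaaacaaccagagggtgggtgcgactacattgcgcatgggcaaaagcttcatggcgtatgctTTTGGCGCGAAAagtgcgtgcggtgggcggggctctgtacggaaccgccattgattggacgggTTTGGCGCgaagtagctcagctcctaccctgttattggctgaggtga
Tk1: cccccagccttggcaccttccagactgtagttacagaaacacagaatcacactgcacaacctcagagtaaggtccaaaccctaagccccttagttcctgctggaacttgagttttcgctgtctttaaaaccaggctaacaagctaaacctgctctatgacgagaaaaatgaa
Cdc6: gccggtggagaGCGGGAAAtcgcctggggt
Orc1: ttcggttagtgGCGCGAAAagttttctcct
Orc3: ccatgcctcccTTTCCCGCacgccccgcct

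The 6 libraries held 41412179 to 59912520 reads on genes. Values are CPM, read counts relative to the library size after the authors' scaling between libraries, which multiplied that size by 0.917 to 0.940 in control and by 1.07 to 1.09 in senescent libraries. All 10 FAP markers were listed, with a summed level of 24946 to 53070 CPM in control and 13415 to 19426 CPM in senescent libraries. This sum is made up mostly of the collagens Col1a1 and Col1a2, which were lower (-2.29 and -1.67), and Col3a1, which was not called, whereas Ly6a (0.81), Cd34 (1.60), Dcn (1.79) and Lum (1.98) were higher and Pdgfra, Pdgfrb and Thy1 were not called in limma. Thy1 was at 489, 41.3 and 61.6 CPM in control replicates 1 to 3 and at 615, 70.9 and 73.6 CPM in senescent ones. Replicate 1 thus stood far above the others in both groups for Thy1, and the cause was not tested. Of 10 leukocyte markers, 5 were listed, at a summed 8.92 to 12.1 CPM in control and 21.7 to 26.6 CPM in senescent libraries. Of these, Cd53 (2.42), Cd68 (1.43) and Itgam (1.11) were higher, Csf1r was not called and Laptm5 was not tested. The sum was 19.2 to 39.5 and 23.8 to 31.2 CPM for the 5 of 8 endothelial markers listed, and 70.8 to 88.6 and 106 to 119 CPM for the 5 of 9 myogenic markers listed. Among the endothelial markers, Pecam1 (0.89) and Vwf (0.64) were higher and Kdr was lower (-0.74). Tek, which made up most of the endothelial sum, was not called, and Cdh5 was not tested. Among the myogenic markers, Vcam1 (1.17) and Itga7 (0.83) were higher, Acta1 was lower (-1.49), Des was not called and Myh3 was not tested. The defining markers Ptprc, Adgre1 and Cd3e of leukocytes and Pax7, Myod1, Myf5 and Myog of muscle cells were not analysed here. The part of these cells in the results was not tested. Control replicate 2 stood apart within its group in the replication genes: it was the highest of the control libraries in 40 of the 47, while control replicate 3 was the lowest in 34. The same shares over all genes were not computed.

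Genes of the replication machinery were lower in senescent FAPs at every step. Of the 47 genes, all of which passed the filter on low values, 42 were lower at an adjusted p under 0.05 in limma, 0 were higher (also 0 at p under 0.05 before adjustment, and 0 in edgeR and in DESeq2) and 5 were not called (Orc3, Orc4, Rfc3, Rpa1 and Rrm2). Among all 14776 genes tested, 24.3% were lower and 21.8% were higher by the same rule. At the study's threshold (p under 0.01 before adjustment, with a log2 fold change below -1), 26 members were repressed in limma, beside 3.9% of all genes. The study set this threshold on edgeR results, so counts at it, here and below, are not those of the study's test. In edgeR the log2 fold changes of Orc6 (-1.02) and Dna2 (-1.17) were also below -1. In 43 members every control library was above every senescent library, which held for 30.9% of all genes. The median log2 fold change (senescent minus control, on log2(CPM + 0.5), a scale on which changes of weakly expressed genes come out too small) was -1.10 over the members and -0.03 over all genes. In bulk RNA, fewer replicating cells and less of these RNAs per cell cannot be told apart. With replicate number as a block, 44 members were lower, Rpa1 and Rrm2 being added. Without control replicate 2, 39 members were lower, 22 passed the study's threshold and the median was -0.97. When libraries were divided by their read totals alone, the median of all genes moved to 0.17, 1929 genes were lower and 4992 higher instead of 3592 and 3218, and 33 members were lower. Relative to the median of all genes, the members stood at -1.07 with totals and at -1.06 with the deposited scaling.

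**Figure D1:**
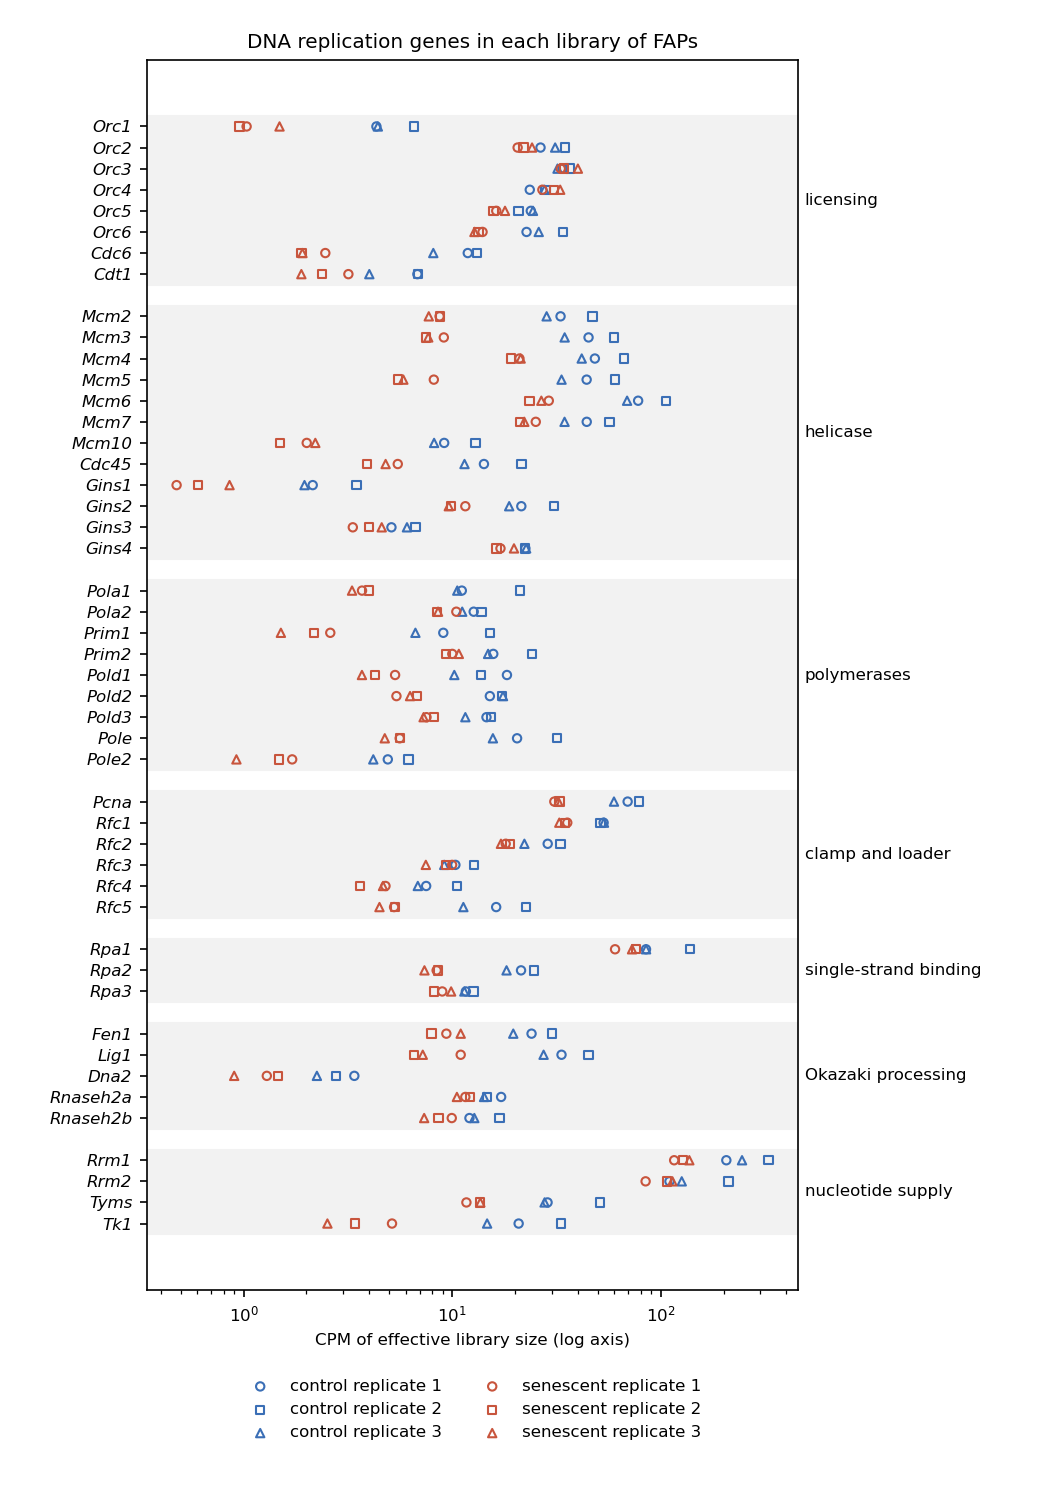
Level of each of the 47 genes (rows, by group) in each library in CPM on a log axis, with control libraries in blue and senescent libraries in red and a symbol for each replicate number. In 43 rows all blue symbols lie to the right of all red ones, and the 4 rows with overlap are Orc3, Orc4, Rfc3 and Rrm2.

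Among the origin licensing genes, the loaders Cdc6 and Cdt1 and the subunits Orc1 and Orc6 fell to less than 50% of control, whereas Orc2 to Orc5, the core of the origin recognition complex, stayed between 72.1% and 114% of it. Cdc6, the ATPase that helps to load the helicase (chr11:98907801-98923940 on GRCm38), was at 11.9, 13.2 and 8.11 CPM in control replicates 1 to 3 and at 2.46, 1.89 and 1.91 CPM in senescent replicates 1 to 3. The groups were far apart, and the senescent mean was 18.9% of the control mean (log2 fold change -2.14, SE 0.20, adjusted p = 0.000337 in limma). Orc1 was at 4.33, 6.54 and 4.40 CPM in control and at 1.03, 0.954 and 1.49 CPM in senescent libraries (-1.75, SE 0.21, adjusted p = 0.000725). Cdt1, the other loader, fell to 42.2% of control (-1.09), and Orc6, a subunit attached more loosely to the core, fell to 48.5% (-0.997). Among the core subunits, Orc2 fell to 72.1% (-0.46, adjusted p = 0.0173) and Orc5 to 72.4% (-0.45, adjusted p = 0.00983). Of the exon length of Orc2, 29.8% lies opposite exons of Nif3l1, and the use of strand in counting is not given in the sources used here. Orc3 was at 33.8, 36.8 and 31.99 CPM in control and at 33.1, 34.4 and 40.1 CPM in senescent libraries. Its groups overlapped, and the log2 fold change of 0.07 (95% interval -0.17 to 0.30, adjusted p = 0.618) was not called. Orc4 was at 23.5, 28.0 and 27.7 CPM in control and at 27.1, 30.7 and 32.9 CPM in senescent libraries. Its groups overlapped too (0.19, interval -0.07 to 0.45, adjusted p = 0.193). With division by totals alone, Orc4 was called higher (0.40, adjusted p = 0.0238), and Orc2 and Orc5 were no longer called (adjusted p = 0.140 and 0.0787). In all, 6 of 8 licensing genes were lower, with a median log2 fold change of -0.73, and 3 passed the study's threshold.

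Helicase genes fell throughout, with 12 of 12 lower, 9 past the study's threshold and a median of -1.49. The 6 subunits of the MCM2-7 ring were all lower, by unequal amounts. Mcm5 (chr8:75109569-75128439 on GRCm38) was at 44.1, 60.2 and 33.4 CPM in control and at 8.16, 5.49 and 5.83 CPM in senescent libraries. This was the largest fall among the members, to 14.1% of control (-2.71, SE 0.23, interval -3.24 to -2.18, adjusted p = 0.000252), and it ranked 38 among the falls of all genes tested. Mcm3 fell to 17.4% of control (-2.42), Mcm2 to 23.2% (-2.02), Mcm6 to 31.3% (-1.64), Mcm4 to 39.2% (-1.30) and Mcm7 to 50.5% (-0.95). Equal in the assembled ring, the 6 subunits were thus left at 14.1% to 50.5% of their control levels of mRNA.

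Factors that activate the ring also fell. Mcm10, needed to start unwinding, was left at 18.8% of control (-2.13), and Cdc45, which binds the ring together with GINS, at 30.1% (-1.60). The 4 genes of the GINS complex did not fall alike. Gins1 had the fewest reads of the members, 24 to 183 in a library, and fell to 25.5% of control (-1.38), and Gins2 fell to 43.7% (-1.13). Gins3 fell to 66.9% (-0.53, adjusted p = 0.0326). Gins4 was at 22.4, 22.3 and 22.6 CPM in control and at 17.04, 16.3 and 19.8 CPM in senescent libraries, the smallest fall of the helicase genes (-0.34, SE 0.10, adjusted p = 0.0275). Its control libraries were nearly equal (SD 0.140 CPM), and no library of either group crossed into the other. Of the exon length of Gins2, 67.3% lies opposite exons of Gse1 on the other strand, and whether reads were counted by strand is not given in the sources used here.

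Polymerase and primase genes were lower in 9 of 9 cases, 6 of them past the study's threshold, with a median of -1.54. In the alpha-primase complex, Prim1, the catalytic primase subunit (chr10:128015168-128030037 on GRCm38), was at 9.06, 15.1 and 6.66 CPM in control and at 2.60, 2.17 and 1.51 CPM in senescent libraries. The fall to 20.4% of control was the largest of the polymerase genes (-2.002, SE 0.30, adjusted p = 0.00169), although the control libraries differed among themselves by more than those of most members. Pola1, the catalytic polymerase subunit, fell to 25.7% (-1.76) and Prim2, the large primase subunit, to 55.0% (-0.80). Pola2, the accessory subunit, was at 12.7, 13.8 and 11.2 CPM in control and at 10.5, 8.45 and 8.55 CPM in senescent libraries. The control libraries were all higher, by a small margin (-0.44, SE 0.14, adjusted p = 0.0322). For polymerase delta, which copies the lagging strand, the catalytic Pold1 fell to 31.4% (-1.54), Pold2 to 36.9% (-1.37) and Pold3 to 55.5% (-0.80). For polymerase epsilon, which copies the leading strand, the catalytic Pole fell to 23.5% (-1.94) and Pole2 to 26.9% (-1.59).

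In the clamp and loader group, 5 of 6 genes were lower and 2 passed the study's threshold, with a median of -0.73. Pcna, the sliding clamp, was at 69.4, 78.7 and 59.7 CPM in control and at 30.9, 32.7 and 32.3 CPM in senescent libraries. The senescent libraries were nearly equal at 46.1% of control (-1.10, SE 0.11, adjusted p = 0.000365). Rfc5 (chr5:117378103-117389047 on GRCm38), a small loader subunit, fell most, from 16.2, 22.5 and 11.3 CPM to 5.26, 5.32 and 4.48 CPM (-1.59, SE 0.23, adjusted p = 0.00158). The other loader genes fell less: Rfc4 to 52.5% of control (-0.84), Rfc2 to 64.4% (-0.60) and Rfc1, the large subunit, to 65.2% (-0.61, adjusted p = 0.000713). Rfc3 was at 10.4, 12.7 and 9.15 CPM in control and at 9.99, 9.35 and 7.47 CPM in senescent libraries. The groups overlapped, and its change was not called (-0.25, interval -0.63 to 0.13, adjusted p = 0.246). The annotation holds pseudogene copies of Pcna (Pcna-ps1 and Pcna-ps2) that could share its reads.

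RPA is made of 3 subunits, and their genes did not change alike. Rpa2 (chr4:132768332-132778752 on GRCm38), the middle subunit and a known target of checkpoint kinases, was at 21.4, 24.8 and 18.2 CPM in control and at 8.42, 8.57 and 7.36 CPM in senescent libraries. It fell to 37.8% of control (-1.34, SE 0.14, adjusted p = 0.000421). Rpa3, the small subunit, was at 11.6, 12.6 and 11.4 CPM in control and at 8.96, 8.16 and 9.88 CPM in senescent libraries (-0.39, SE 0.12, adjusted p = 0.0301). Both sets of values are separate, but the step between them is small. Rpa1, the large DNA-binding subunit, was at 85.0, 138 and 85.0 CPM in control and at 60.4, 76.1 and 72.9 CPM in senescent libraries. All control libraries were higher, and control replicate 2 stood far above the others. The change was not called (-0.52, SE 0.19, interval -0.97 to -0.07, adjusted p = 0.0578). With replicate number as a block it was called (adjusted p = 0.0104), as it was in DESeq2 (adjusted p = 0.0311) and without control replicate 1 (-0.64, adjusted p = 0.0442). It was not called without control replicate 2 (-0.29, adjusted p = 0.0539), with division by totals alone (-0.31, adjusted p = 0.235) or in edgeR (adjusted p = 0.0613). The median of the 3 genes was -0.52, and -0.34 without control replicate 2.

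All 5 Okazaki fragment genes were lower, with a median of -0.95, and 2 passed the study's threshold. Lig1, the ligase that seals nicks behind the fork (chr7:13277283-13311433 on GRCm38), was at 33.4, 45.0 and 27.4 CPM in control and at 10.98, 6.56 and 7.22 CPM in senescent libraries. The fall, to 23.4% of control, was the largest of the group (-2.04, SE 0.23, adjusted p = 0.000605). Fen1, the flap nuclease, fell to 38.4% (-1.33), but 84.2% of its exon length lies opposite exons of other genes. Dna2, which trims long flaps, fell to 43.3% (-0.95). For RNase H2, which removes ribonucleotides, Rnaseh2a was at 17.2, 14.6 and 14.2 CPM in control and at 11.6, 12.1 and 10.5 CPM in senescent libraries. The libraries of the groups did not overlap, and the fall was the smallest of the group (-0.41, SE 0.12, adjusted p = 0.0245). Rnaseh2b fell to 62.0% of control (-0.65, adjusted p = 0.0155).

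Nucleotide supply genes held a very large and a small change, with 3 of 4 lower, all 3 past the study's threshold, and a median of -1.19. Tk1, the cytosolic thymidine kinase of S phase (chr11:117815526-117826092 on GRCm38), was at 20.8, 33.3 and 14.7 CPM in control and at 5.14, 3.43 and 2.52 CPM in senescent libraries. It fell to 16.1% of control (-2.45, SE 0.32, adjusted p = 0.00106). Tyms, thymidylate synthase, fell to 36.2% (-1.37), and a pseudogene copy (Tyms-ps) is annotated. Rrm1, the large subunit of ribonucleotide reductase, was at 206, 328 and 245 CPM in control and at 116, 128 and 137 CPM in senescent libraries. All control libraries were well above the senescent ones, and it fell to 48.9% of control (-1.01, SE 0.16, adjusted p = 0.00234). Rrm2, the small subunit of S phase, was at 110, 212 and 126 CPM in control and at 84.6, 107 and 114 CPM in senescent libraries. Control replicate 1 lay below senescent replicate 3, and the change was not called (-0.50, SE 0.23, interval -1.05 to 0.04, adjusted p = 0.117). It was called with replicate number as a block (adjusted p = 0.0277) and without control replicate 1 (-0.69, adjusted p = 0.0466). Without control replicate 2 its log2 fold change was -0.22 (adjusted p = 0.198), and with division by totals alone it was -0.29 (adjusted p = 0.354).

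**Figure D2:**
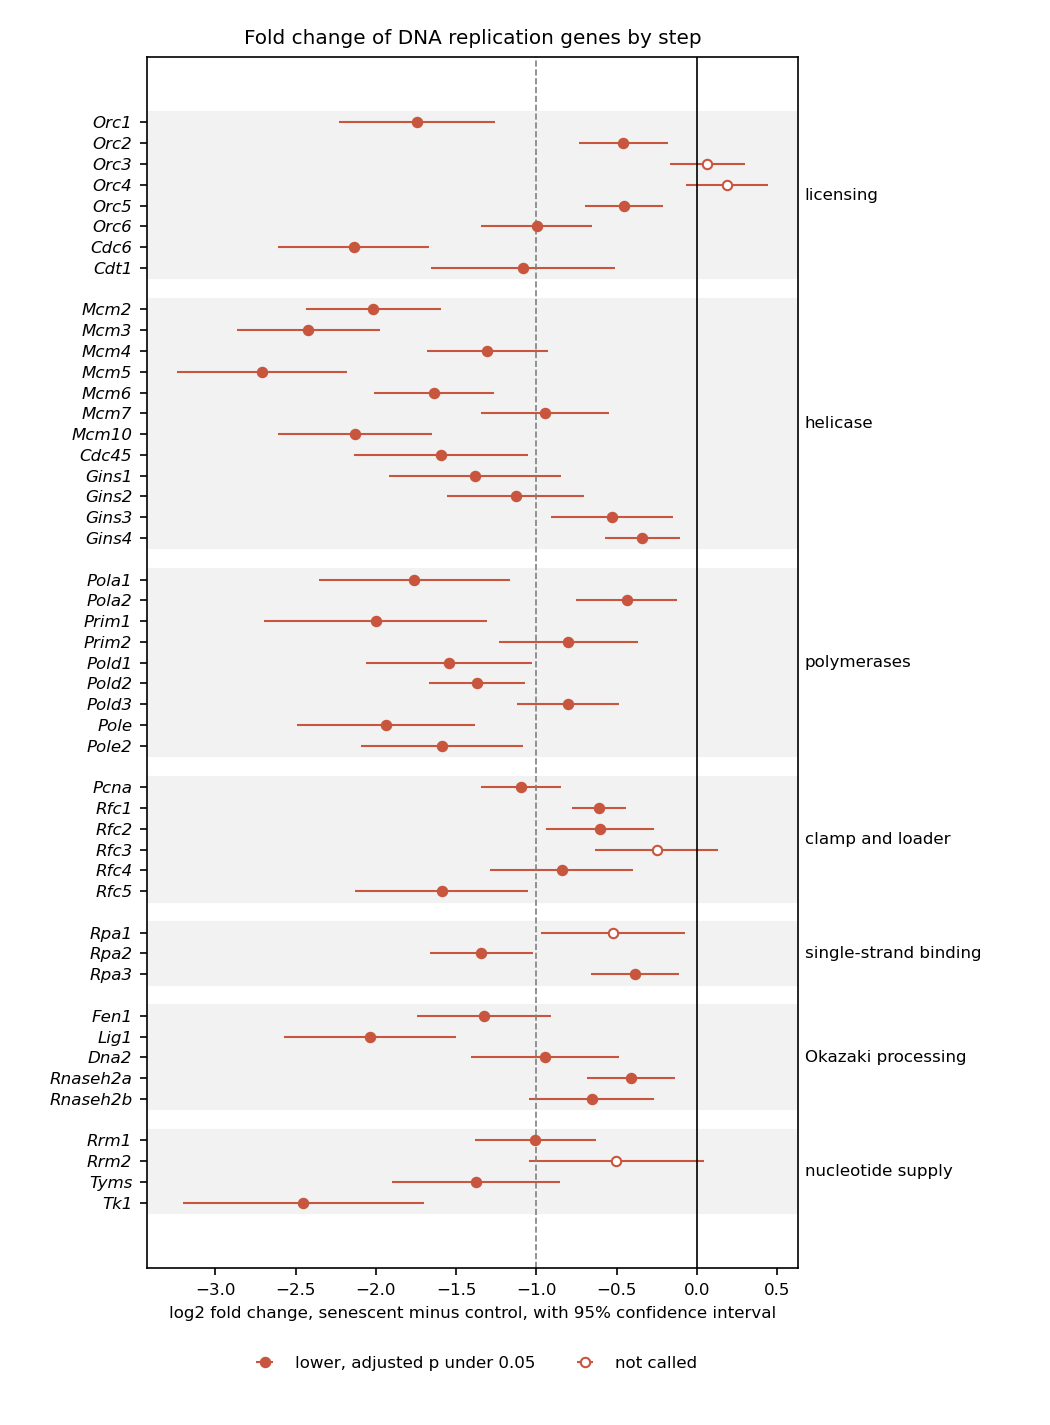
Log2 fold change (senescent minus control) of each of the 47 genes with its 95% confidence interval from limma, by group. Filled points are the 42 genes lower at an adjusted p under 0.05, open points the 5 not called, and the dashed line marks -1. Cdc6, Mcm5, Prim1, Rfc5, Rpa2, Lig1 and Tk1 lie farthest left in their groups.

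Several of the smaller falls were near the threshold. Of the 42 genes called lower, 35 stayed called whichever library was left out. The other 7 were all among the smaller falls. Rpa3 lost its call without any library other than senescent replicate 3 (adjusted p = 0.0560 to 0.115). Gins3 lost it without control replicate 2 or 3 or senescent replicate 1 or 2 (0.0653 to 0.0916), and Gins4 without control replicate 1 or 3 or senescent replicate 1 or 2 (0.0622 to 0.109). Pola2 depended on control replicates 1 and 2 and senescent replicates 2 and 3 (0.0631 to 0.115), and Rnaseh2a on control replicate 1 and all senescent replicates (0.0516 to 0.0824). The call of Orc2 was lost without control replicate 3 or senescent replicate 1 or 2 (0.0520 to 0.0615), and that of Rnaseh2b without senescent replicate 2 or 3 (0.0528 to 0.0590). In these cases the log2 fold change stayed negative: it was -0.32 to -0.41 for Rpa3 and -0.28 to -0.34 for Gins4, and -0.55 and -0.66 for Rnaseh2b. The most calls, 7, were lost without senescent replicate 2. Fewer of all genes were called lower without it too (2416 instead of 3592), and the median of the members stayed at -1.10. Division by totals alone lost 9 calls: these 7 genes with Orc5 and Rfc2.

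Ratios between subunits of a complex, or between genes of a pair, are free of any scaling between libraries but for the pseudocount. The 11 ratios were compared with 2-sided exact permutation tests over the libraries, in which 3 against 3 cannot give a p below 0.1. In 9 of the 11 the groups did not overlap, each at that smallest p (0.1, Benjamini-Hochberg adjusted 0.122). The ratios were chosen with earlier results known, and the share without overlap among ratios of other genes was not computed. Against the mean of Orc2 to Orc5, Orc1 fell by 1.58 on the log2 scale, from -2.38 ± 0.26 to -3.96 ± 0.15 (SD, n = 3). In polymerase delta, Pold1 to Pold3 moved against the small subunit Pold4 from -1.14 ± 0.06 to -2.79 ± 0.08, the most separate of the ratios against their spread. Pole and Pole2 fell by 0.98 against Pole3 and Pole4, histone-fold subunits that also serve in chromatin complexes. Gins1 and Gins2 fell by 0.82 against Gins3 and Gins4, and Rpa2 fell by 0.82 against Rpa1. For Rfc2 to Rfc5 against Rfc1 (-0.21, exact p = 0.4, adjusted 0.440) and Rnaseh2a against Rnaseh2b and Rnaseh2c (-0.12, exact p = 0.7, adjusted 0.7), the groups overlapped.

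In nucleotide supply, enzymes of S phase were set against relatives that are also made outside it. The ratio of Tk1 to the mitochondrial Tk2 was 0.72 ± 0.67 (log2, SD, n = 3) in control and -2.49 ± 0.66 in senescent libraries. Rrm2 against Rrm2b, the p53-inducible small subunit of the same enzyme, went from 3.67 ± 0.49 to 2.61 ± 0.03. Against Rrm1, Rrm2 rose by 0.50, from -0.83 ± 0.17 to -0.33 ± 0.11. The loader Cdt1 rose by 0.94 against its inhibitor Gmnn (geminin), from -0.44 ± 0.26 to 0.50 ± 0.06, with log2 fold changes of -2.02 for Gmnn and -1.09 for Cdt1. These differences are larger than the spread within either group, at the smallest p the design allows.

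**Figure D3:**
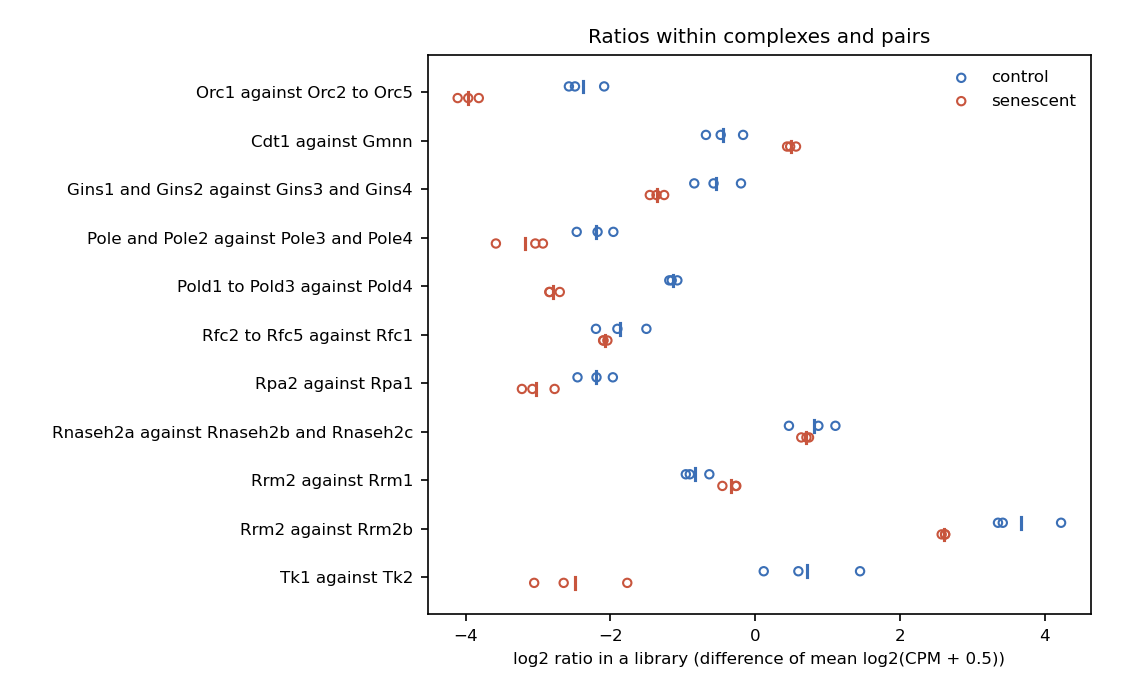
Log2 ratio of each pair or complex (rows) in each library, as the difference of mean log2(CPM + 0.5) between the sides named. Circles are libraries, control in blue and senescent in red, and bars are group means. The groups overlap for Rfc2 to Rfc5 against Rfc1 and for Rnaseh2a against Rnaseh2b and Rnaseh2c, and are separate in the other 9 rows.

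Levels of different genes were compared per kilobase of annotated exon, with the exons of all transcripts of a gene joined. This length can exceed that of the mRNA present, so the order of genes below depends on it. On this measure Rrm2 had the highest level of the members in both groups, 53.9 CPM per kb in control and 36.7 in senescent FAPs. Before division by length (11012 bp for Rrm1, 2771 bp for Rrm2), Rrm1 was above Rrm2. Their means were 260 and 149 CPM in control and 127 and 102 CPM in senescent FAPs. Pcna followed in control (28.9, against 13.3 in senescent FAPs), and then Rrm1 (23.6 and 11.5), Rpa1 (18.4 and 12.5) and Mcm6 (18.1 and 5.66). Dna2 was lowest in both, at 0.477 and 0.207 CPM per kb. Within the MCM2-7 ring the control levels ran from 5.20 CPM per kb (Mcm2) to 18.1 (Mcm6), and the senescent levels from 1.21 (Mcm2) to 5.70 (Mcm4). Gins4 moved in the order, from below Mcm6 in control (16.7 CPM per kb) to well above it in senescent FAPs (13.1).

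Members with E2F letters in the promoter window had a median log2 fold change of -1.57 (n = 14, -2.71 to 0.07), and those without -1.01 (n = 25, -2.45 to 0.19). The ranges overlapped almost fully. Orc3 and Rfc3 held E2F letters and were not called, while Tk1 (-2.45), Mcm10 (-2.13), Lig1 (-2.04), Mcm2 (-2.02) and Prim1 (-2.002) fell without such letters in this window.

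Other genes of the pathway were taken from 7 lists, in which 94 of 96 genes were tested, 65 were lower and 7 higher in limma. Without senescent replicate 2, 4 were higher. With division by totals alone, 53 were lower and 15 higher. Among helpers at the origin and the fork, 22 of 22 firing and fork factors were lower, with a median of -1.44. The largest fall was that of Pclaf (listed as 2810417H13Rik), which encodes the PCNA-binding protein PAF15, from 30.2 ± 11.8 to 1.83 ± 0.418 CPM (SD, n = 3; -3.66, adjusted p = 0.000197). All 9 genes of chromatin assembly and maintenance behind the fork were lower too (median -1.40), led by Uhrf1, which recruits the maintenance methyltransferase to newly copied DNA (30.0 ± 8.99 to 3.00 ± 1.17 CPM; -3.13, adjusted p = 0.000333).

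Of the remaining subunits with Exo1, 3 of 5 genes were lower and 1 was higher. Exo1, an exonuclease of mismatch repair and end resection, fell from 9.60 ± 2.02 to 0.666 ± 0.273 CPM (-3.12, adjusted p = 0.000161), whereas Pold4 was higher, at 32.9 ± 2.82 and 44.1 ± 3.04 CPM (0.42, adjusted p = 0.00954). Among 17 other nucleotide enzymes 13 were lower and 2 higher (median -0.63). Shmt2, the mitochondrial serine hydroxymethyltransferase, fell most (-1.88, adjusted p = 0.000427), and Tk2 (0.76, adjusted p = 0.00316) and Rrm2b (0.56, adjusted p = 0.0168) were the genes that rose. Rrm2b was not called without senescent replicate 2 (0.50, adjusted p = 0.0719) or 3 (0.48, adjusted p = 0.0669).

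Of 12 genes of translesion and repair polymerases, which work outside regular fork progression, 3 were lower and 3 higher, with a median of 0.12, beside the 24.3% lower and 21.8% higher of all genes. Polk, a translesion polymerase, rose from 34.9 ± 7.43 to 78.0 ± 6.32 CPM (1.17, SE 0.16, adjusted p = 0.00108). Polq, the polymerase of microhomology-mediated end joining, fell from 11.5 ± 6.96 to 1.65 ± 0.468 CPM (-2.35, adjusted p = 0.00210). In the list of mitochondrial DNA replication, 6 of 13 genes were lower and 1 was higher (median -0.28). Lig3, the DNA ligase of mitochondria, fell most (-0.84, adjusted p = 0.000419), and Polg2, the accessory subunit of the mitochondrial polymerase, rose (0.71, adjusted p = 0.00619).

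Of 16 regulators of the E2F and DREAM families tested, 9 were lower and 0 higher (median -0.42), with 4 higher at p under 0.05 before adjustment, 2 in edgeR, 3 in DESeq2 and 4 in limma with replicate number as a block. The repressor E2f7 fell most, from 13.9 ± 3.72 to 1.99 ± 0.456 CPM (-2.52, adjusted p = 0.000269). E2f1, an activator of replication genes that was chosen for mention after its values were seen, was at 28.2, 43.3 and 27.2 CPM in control and at 40.3, 47.4 and 43.3 CPM in senescent libraries. The groups overlapped, and the change was not called (0.43, adjusted p = 0.0765), but each senescent library was above the control library of its number. It was called higher with replicate number as a block (adjusted p = 0.0179), without control replicate 2 (0.65, adjusted p = 0.00129) and with division by totals alone (0.64, adjusted p = 0.0218).

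**Figure D4:**
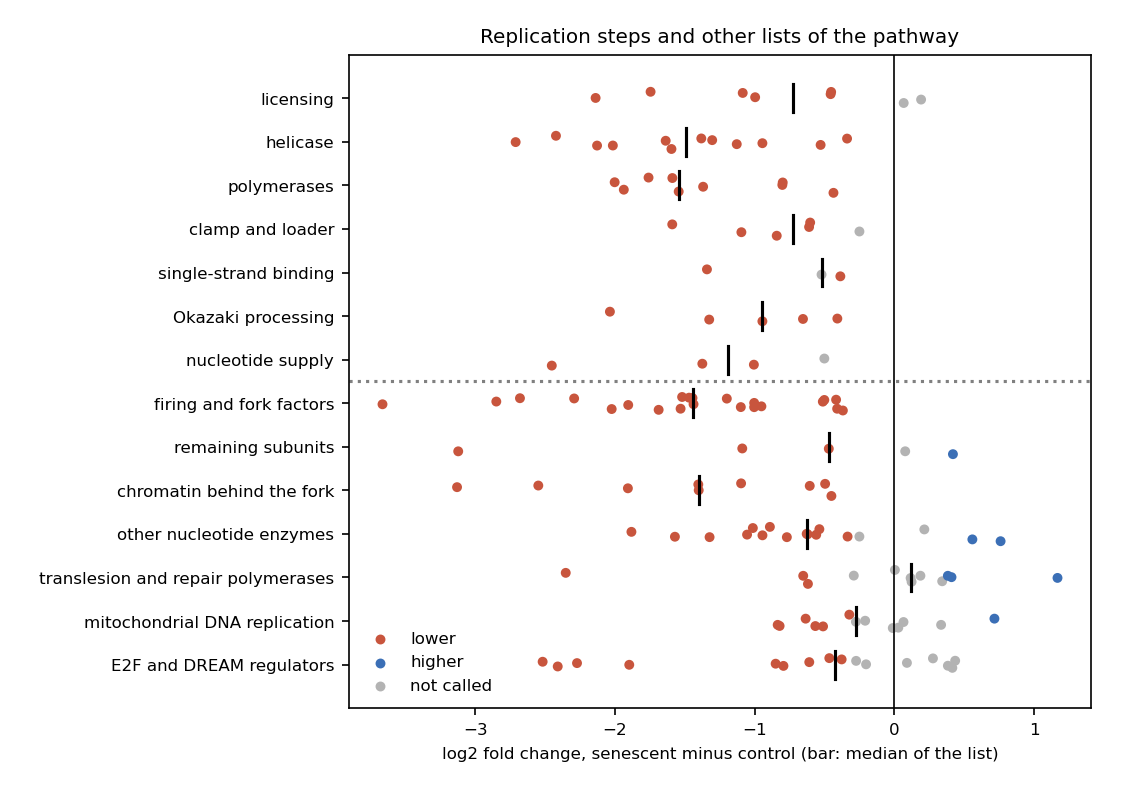
Log2 fold change (senescent minus control) of each gene, as points, in the 7 groups of replication genes (above the dotted line) and in 7 other lists of the pathway (below it), with a bar at the median of each. Points are red where lower, blue where higher and grey where not called. The medians of the replication groups lie between -1.54 and -0.52, and that of the translesion and repair polymerases is 0.12.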

How the data were processed

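Bulk RNA-seq of 3 control and 3 senescent FAP libraries was used. Per the labels, libraries were made with a stranded mRNA kit, and the submitters' processing notes name mm10, R 3.6.0 and edgeR 3.10. The aligner, the counter and the use of strand are not given in the sources used here. The authors deposited 1 table of signal values, that is CPM scaled by effective library sizes, 1 column a library. Every value was a whole multiple of 1 read's value, so whole reads were recovered for 100% of values. A line that names no gene (0.0041% to 0.0070% of reads) was left out. Replicates differed by a chi-square of 15.1 to 154 per gene, so none was a repeat.

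Groups and replicate numbers came from the titles. The plan assumed plain CPM, and its test was used for these values too. Of 16894 genes, the 14776 that reached 0.5 CPM in 3 or more libraries were tested with limma 3.58.1 (R 4.3.3), with a variance trend, on log2(CPM + 0.5), 2-sided, with Benjamini-Hochberg adjustment over all genes tested. The scripts were tested on simulated data. Alternatives were pseudocounts of 0.1 and 1, no filter or 2 CPM, median-of-ratios scaling, library totals, quantile normalization, each library left out, an adjusted p under 0.01, a replicate block, and edgeR 4.0.16 (quasi-likelihood) and DESeq2 1.42.0 on the recovered reads, which called 42 and 43 members lower. Deviations from group means of all genes tested correlated at 0.537, 0.308 and 0.207 between libraries with the same number (-0.357 to 0.153 otherwise). The numbers may therefore pair the libraries, which the labels do not state. The main fit and the ratio tests did not use such a pairing, and the block is given as an alternative.

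The members, lists and ratios were chosen with earlier results of these data known. Per-library values were given for the members with the largest and smallest change in each group, for those not called and for a few others. From each other list, the genes that fell and rose most were given with fold changes, some with group means. Among these lists, only E2f1 was given with per-library values. Lengths and coordinates came from GENCODE M21 (GRCm38, the build of mm10), and promoters from RefSeq (GRCm38.p6), where the first entry of a symbol was used.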

Additional observations from a re-analysis of the deposited data

How the results depend on the processing

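Division by library totals alone changed most: the median log2 fold change was -0.90 over all members, -0.52 for licensing, -1.35 for polymerases and -0.31 for single-strand binding, 1 member (Orc4) was higher, and 15 genes of the other lists were higher. The licensing median was -0.67 with quantile normalization. The Okazaki fragment median was -1.15 with a pseudocount of 0.1, -1.14 with quantile normalization, -1.17 in edgeR and -1.16 in DESeq2. With 1 library left out, the single-strand binding median ranged from -0.64 to -0.34, the number of genes higher in the other lists from 4 to 8, and members lower from 35 to 40. The ratio of Rnaseh2a to Rnaseh2b and Rnaseh2c ranged from -0.29 to 0.026, positive without control replicate 1. Orc3 ranged from -0.015 (without senescent replicate 3) to 0.12, and Rnaseh2c from -0.030 (without control replicate 3) to 0.22, both uncalled. The causes were not tested. Of 331 values of comparisons under alternatives, 317 were counted as unchanged. For ratios this asked only that the sign was kept. The ratio of Rfc2 to Rfc5 against Rfc1, for example, went from -0.21 to -0.028 without control replicate 2. Medians had to move by less than the spread between libraries, and counts could differ to a limited extent. Of 751 member values, 708 kept direction and call. At an adjusted p under 0.01, 33 members were lower. With replicate number as a block 44 members were lower, Rpa1 and Rrm2 being added, and no other member's call changed. Low read counts limit the precision for Gins1, which was not tested under the 2 CPM filter.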
